A study of Homo sapiens with 108 samples.

Results

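Colo679 is an established human melanoma cell line, and its unirradiated cells were compared here with the unirradiated cells of 5 other melanoma lines, 92-1, C32TG, HMV-I, HMV-II and MeWo. The study exposed all 6 lines to 2 Gy of carbon ions or X-rays and took RNA 1 h and 3 h later, with untreated (0 Gy) controls of each line for each beam, on single-colour whole-genome CodeLink arrays. Members are the 6 Colo679 arrays at 0 Gy among 108 arrays in all, 3 from the C-ions set and 3 from the X-rays set, taken by the line, beam and dose in the labels. They were set against the 15 arrays at 0 Gy of the other lines in the same set, 3 for each line, by subtracting the mean of the 5 line means on the log2 scale; below 0 means lower in Colo679. Each set was tested by itself, and a gene was reported only when it differed in the same direction in both. The labels give no donor, passage or culture details, and nothing in them tells if the arrays of 1 group are cultures grown apart, so the p-values measure only the spread between these arrays, which may be technical. Each line counts as 1 unit at most, and the labels do not tell if lines share a donor.

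Melanoma arises from melanocytes, the pigment cells of skin, eye and mucosa. Their identity rests on MITF, a transcription factor that drives the genes of melanin synthesis and of the melanosome, the organelle that holds the pigment. Melanoma cells can keep this pigment programme or lose it and take on neural crest-like or mesenchymal traits, and many carry a constantly active MAPK pathway, whose feedback inhibitors then stand high.

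Levels are given as log2 intensity after quantile scaling of all arrays, on which the unirradiated arrays ran from -1.91 to 9.53 with a median of 0.19, so values near -1 are among the dimmest spots. The files carry no background flags, so where a line reads near the floor a difference may be understated. Colo679 arrays of 1 set correlated with r = 0.987 to 0.997 across probes, arrays of different sets with 0.981 to 0.990, and Colo679 with the other lines with 0.872 to 0.941, descriptions over probes that share scaling. Of the 8 melanocyte and melanoma markers, 7 had a probe, and 6 of these stood above the median spot in Colo679 in both sets. PMEL, MLANA and TYR were among its brightest spots, and DCT had no probe with 1 symbol. SOX10, a neural crest factor, was dim in Colo679 at -0.27 ± 0.12 and -0.31 ± 0.04 (mean ± SD over 3 arrays; here and below the first value is that of the C-ions set and the second that of the X-rays set), and its line means elsewhere were no higher than 0.98. Of 5 keratinocyte markers KRT5 had no value in the C-ions set and read -1.53 in the X-rays set, KRT14 read 0.90 and 0.44, and KRT1, KRT10 and DSG3 read -1.39 to -1.02 over both sets. The mean level of 5 leukocyte markers in Colo679 was -0.41 and -0.61 (-0.79 to -0.52 and -0.78 to -0.47 over the other lines), and that of 5 endothelial markers -0.11 and -0.08 (-0.18 to 0.18 and -0.04 to 0.21). In each of these 3 lists 1 marker stood above the median spot, KRT14, MS4A1 and PECAM1, while KRT10, PTPRC and CDH5 were dim.

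Among 14711 genes tested, 439 were higher in Colo679 in both sets and 289 were lower, which is 2.98% and 1.96% of all genes, or 4.95% together. A gene was called when limma's treat gave an adjusted p below 0.05 for a difference beyond 2-fold in each set. Over all genes 454 (3.09%) had every Colo679 array above every array of the other lines with a value in both sets, and 411 (2.79%) had them below. Of the called genes, 225 lay above in this way and 114 below (1.53% and 0.775% of all genes). At least 4-fold in both sets were 168 higher and 82 lower genes, and at least 16-fold were 26 higher genes and 1 lower gene, FAM20C. In the C-ions set 1624 of 36082 probes were called (4.5%), 873 higher (2.42%) and 751 lower (2.08%). In the X-rays set 1583 were called (4.39%), 1019 higher (2.82%) and 564 lower (1.56%). In both sets 697 probes were higher (1.93%) and 420 lower (1.16%), and 0 were called in opposite directions. With the values as deposited the share of higher probes in the C-ions set went from 53.8% to 64.1%. The same contrast made for each line in turn gave 225 higher and 114 lower genes lying outside all other arrays for Colo679, against 240 to 626 and 144 to 513 for the others, so Colo679 had the fewest of both. Only 26 probes passed when each line counted as 1 value in place of 3 arrays, all of them higher, and of the 118 called genes named in the text this kept RGS1, CT55, FGL2, SUCNR1 and DNASE2B. Of these, RGS1, CT55, FGL2 and SUCNR1 had passed the filter on low values only through Colo679, so they had to differ and the test gives them no further support. The rest of the 118 genes differed beyond the spread between arrays but did not pass a test against the spread between lines.

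**Figure D1:**
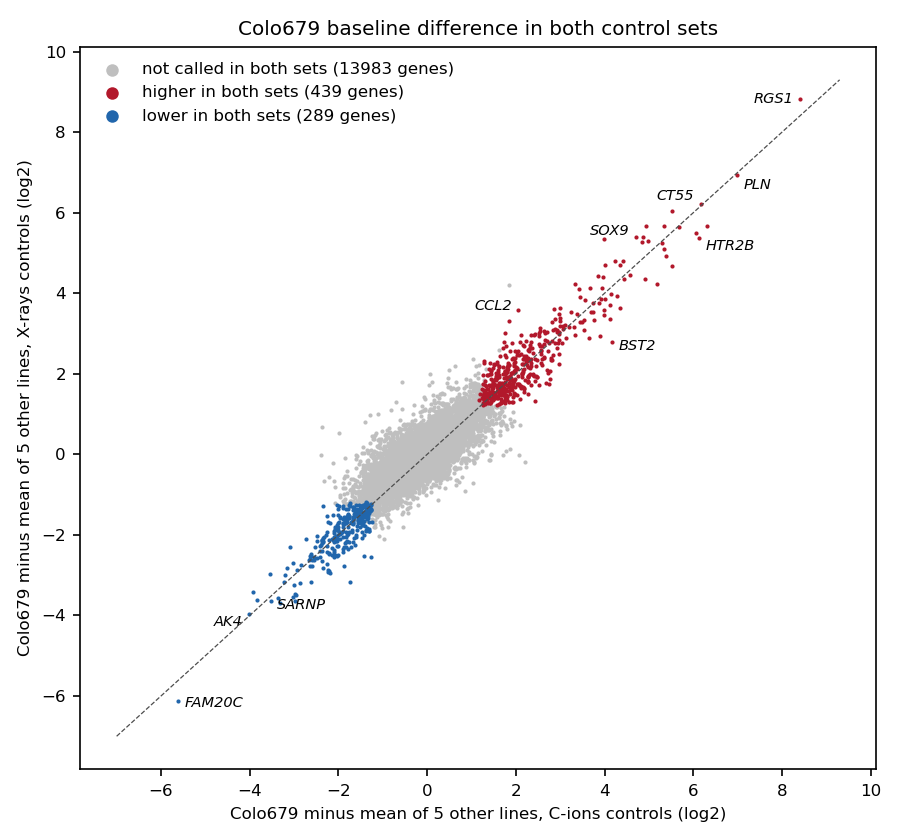
Each point is 1 of 14711 genes, placed by its difference between Colo679 and the mean of the 5 other lines (log2) in the C-ions controls on the x axis and in the X-rays controls on the y axis; red and blue mark the 439 and 289 genes called higher or lower in both sets, and the dashed line marks equal differences. The called genes lie along the dashed line, from RGS1 at the upper right to FAM20C at the lower left, with CCL2 above it and BST2 below it.

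Several pigment genes stood high in Colo679. Of 26 measured genes of melanocyte lineage and pigmentation, 10 were higher and 2 lower, 38.5% and 7.69% beside 2.98% and 1.96% of all genes, and the median difference was 0.93 in the C-ions set and 0.72 in the X-rays set beside -0.10 and -0.04 over all genes. Of the lower genes 0 were called with the values as deposited or without replicate 2. The count of higher genes rested on HMV-I. Without HMV-I among the comparators 3 were higher and 3 lower, with medians of 0.34 and 0.31, and TYR, PMEL, CAPN3, SLC45A2, RAB38, MLPH and LEF1 were no longer called.

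TYR encodes tyrosinase, the enzyme that starts melanin synthesis. Its Colo679 arrays read 9.0, 9.22 and 9.06 in the C-ions set, where the other lines ran from -0.48 to 8.59 (median 8.26). In the X-rays set they read 8.85, 8.69 and 8.79 against -0.72 to 8.26 (median 7.98). All 6 Colo679 arrays thus stood above every array of every other line, although C32TG, HMV-II and MeWo came within 1 log2 unit by their means, while HMV-I read -0.42 and -0.55. Against the mean of the other lines TYR was higher by 2.72 ± 0.07 and 2.57 ± 0.06 (SE; adjusted p = 2.14e-14 and 1.77e-15, limma).

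S100B, a calcium-binding protein used as a melanoma marker, was also above all other arrays, at 5.21, 4.91 and 5.30 (C-ions) and 5.01, 5.03 and 5.05 (X-rays) against highest values of 4.34 and 4.61 elsewhere. It was higher by 2.99 ± 0.07 and 3.19 ± 0.06 (adjusted p = 8.52e-15 and 2.52e-19) and kept its call without HMV-I. The lowest lines for S100B were 92-1 at -0.56 and -0.43 and HMV-I at 0.19 and -0.46. MLANA, the melanoma antigen of the melanosome, stood at 9.23 ± 0.06 and 8.79 ± 0.08 in Colo679, within the reach of 92-1, HMV-II and MeWo, while C32TG and HMV-I read 0.45 and 0.60 and -0.85 and -1.21. Its difference of 3.99 and 3.58 is therefore one from those 2 lines. GPR143, the melanosomal receptor lost in ocular albinism, had the same low lines, with 4.88 ± 0.07 and 4.27 ± 0.11 in Colo679 and -0.42 and -0.45 in C32TG and -0.07 and -0.15 in HMV-I, and was higher by 2.32 and 1.98. PMEL, which builds the fibrils of the melanosome, read 9.23 and 9.13 in Colo679 and 9.33 to 9.42 in 92-1, HMV-II and MeWo, so its differences of 2.17 and 2.10 came from C32TG and HMV-I. TYR, PMEL and MLANA lie close to the top of the scale, where differences may be compressed.

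The other higher genes of this list were CAPN3 (1.91 and 2.01), a calpain protease, SLC45A2 (1.81 and 1.41), a melanosomal transporter, RAB38 (2.34 and 1.72), which carries enzymes to melanosomes, MLPH (1.75 and 1.34), which links melanosomes to their motor, and LEF1 (1.27 and 1.97), a WNT pathway transcription factor. MLPH and LEF1 were not called when all kept probes of a gene were averaged. MYO5A, the melanosome motor itself, was lower, at -1.32 ± 0.07 and -1.32 ± 0.07 (SE), with a level of 2.83 ± 0.07 and 2.57 ± 0.15, and lost its call in 7 alternatives besides lines as the unit, among them leaving out C32TG, HMV-II or MeWo. TFAP2A, a transcription factor of neural crest and melanocytes, was lower, at -1.40 ± 0.11 and -1.78 ± 0.09, with all Colo679 arrays below all others, and lost its call without 92-1. MITF itself did not pass, at 7.10 ± 0.11 and 6.97 ± 0.11 in Colo679 and differences of 0.32 and 0.51. TYRP1, which acts after tyrosinase, read 3.38, 3.02 and 3.07 (C-ions) and 2.41, 2.33 and 2.26 (X-rays) in Colo679 and 8.28 and 7.95 on average in 92-1, and was called only in the X-rays set (differences of -0.56 and -1.49).

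**Figure D2:**
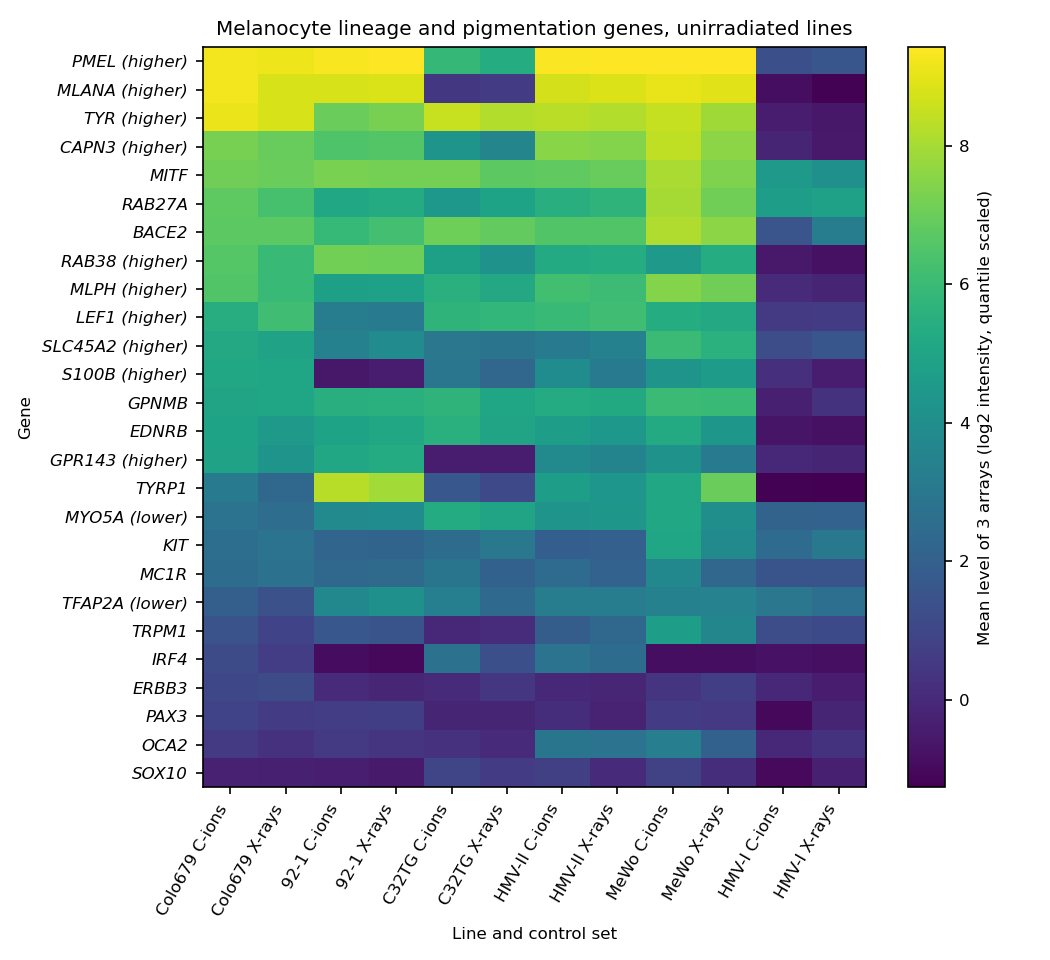
Colour gives the mean level of 3 unirradiated arrays (log2 intensity, quantile scaled) of the 26 melanocyte lineage and pigmentation genes (rows, in the order of their Colo679 level; higher or lower marks the called ones) in each line and control set (columns). Both Colo679 columns are bright for PMEL, MLANA and TYR, the HMV-I columns are dark for TYR and MLANA, and TYRP1 is brightest in 92-1.

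MITF is known to bind E-box letters in promoters of pigment genes. The 250 bases before the RefSeq start of the genes of this list called higher were therefore searched for CATGTG and CACGTG on both strands. The lower genes MYO5A and TFAP2A were not searched. RefSeq promoter entries (GRCh38.p14) were matched for TYR, MLANA, CAPN3, MLPH, LEF1 and GPR143, in 9 entries, with more than 1 each for CAPN3 and MLPH. PMEL, SLC45A2, RAB38 and S100B had no matched entry. Of the 9 entries 3 held a match, where 15.2% of 35116 promoters did (9.42% for CATGTG, 6.34% for CACGTG). Shown are TYR, above all other lines, and GPR143 and MLANA, which have the same low lines but differ in these letters. Sequences run 5′ to 3′ on the gene's strand, and capitals mark CATGTG or its reverse complement CACATG.
TYR (chr11:89177625-89177874, plus strand): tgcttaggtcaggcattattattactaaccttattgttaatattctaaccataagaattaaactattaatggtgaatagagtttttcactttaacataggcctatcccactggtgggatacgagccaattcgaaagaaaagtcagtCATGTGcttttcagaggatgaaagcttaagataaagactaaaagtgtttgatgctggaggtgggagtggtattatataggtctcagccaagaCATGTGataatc
GPR143 (chrX:9765848-9766097, minus strand): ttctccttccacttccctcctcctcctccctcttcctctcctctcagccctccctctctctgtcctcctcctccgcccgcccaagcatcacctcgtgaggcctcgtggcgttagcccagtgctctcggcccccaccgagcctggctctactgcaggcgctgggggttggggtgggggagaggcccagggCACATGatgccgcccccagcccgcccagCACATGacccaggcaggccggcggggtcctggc
MLANA (chr9:5890639-5890888, plus strand): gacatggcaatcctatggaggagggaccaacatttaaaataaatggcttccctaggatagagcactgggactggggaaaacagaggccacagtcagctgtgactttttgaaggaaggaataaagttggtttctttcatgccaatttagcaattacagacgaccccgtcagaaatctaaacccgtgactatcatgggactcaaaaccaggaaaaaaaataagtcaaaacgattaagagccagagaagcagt
In TYR the matches start 104 and 12 bases before the gene's start, and in GPR143 61 and 33 bases before it. MLPH held 1 CACGTG, 35 bases before its start. A match is a description of letters, and these arrays hold no measure of binding.

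RGS1 led the higher genes, a regulator that speeds the shut-off of G-protein signals and is known mainly from lymphocytes. Its Colo679 arrays read 7.66, 7.48 and 7.57 in the C-ions set and 8.0, 8.03 and 8.0 in the X-rays set. The other lines lay between -1.17 and -0.42, on 15 arrays of the C-ions set and the 13 with a value in the X-rays set, so no line came near Colo679. The difference was 8.42 ± 0.07 and 8.83 ± 0.11 (SE; 342 and 456-fold; adjusted p = 7.72e-24 and 5.61e-23, limma). RGS1 was named for this size and passed the filter on low values only through Colo679, so these p-values give it no further support. The receptors HTR2B, for serotonin, and SUCNR1, for succinate, stood with it. HTR2B read 6.86, 7.01 and 7.12 (C-ions) and 5.97, 6.06 and 6.18 (X-rays) in Colo679, with 92-1 next at 4.42 and 4.52, and was higher by 6.13 and 5.38. SUCNR1 read 4.65, 4.43 and 4.58 (C-ions) and 4.44, 4.39 and 4.40 (X-rays) where no other array exceeded -0.38, and was higher by 5.33 and 5.11, with its other kept probe at 4.83 and 5.21.

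PLN (phospholamban), the brake on the calcium pump of heart muscle, read 7.15 and 7.18 (2 arrays with a value) in the C-ions set and 6.99, 7.26 and 7.17 in the X-rays set. The other lines ran from -1.02 to 3.21 (median -0.41) and -1.14 to 3.09 (median -0.37), and the top of that range was 92-1 alone, at 3.03 and 3.04. PLN was higher by 6.99 ± 0.18 and 6.94 ± 0.08 (SE; adjusted p = 5.60e-15 and 3.35e-24). MYOZ2, a protein of the Z disc of striated muscle, read 6.19, 6.0 and 6.10 (C-ions) and 5.31, 5.23 and 5.35 (X-rays) in Colo679, with HMV-II next at 1.41 and 1.24, and was higher by 6.31 and 5.67. Both muscle genes thus stood above all other arrays in both sets, and neither was called when lines were the unit.

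CT55, a cancer-testis antigen, read 5.24, 5.04 and 5.22 (C-ions) and 5.09, 5.22 and 5.21 (X-rays) where no other array exceeded -0.68, and was higher by 6.17 ± 0.08 and 6.21 ± 0.11 (adjusted p = 9.63e-21 and 2.85e-21). CT55 too passed the filter on low values only through Colo679, so its p-values give no further support. LIN28B, which blocks the maturation of let-7 microRNAs, read 4.83, 4.68 and 4.76 (C-ions) and 5.45, 5.57 and 5.56 (X-rays), with 92-1 at 3.81 and 3.95 and the 4 remaining lines at -1.0 or below, and was higher by 4.94 and 5.68. SOX9, a transcription factor of neural crest and cartilage, read 6.82, 6.67 and 6.75 against 0.58 to 3.15 (median 2.19) in the C-ions set. In the X-rays set it read 7.27, 7.32 and 7.27 against 0.54 to 2.93 (median 1.92). No line came within 3 log2 units of Colo679 for SOX9, and its difference was 4.72 ± 0.06 and 5.40 ± 0.08 (adjusted p = 3.73e-20 and 6.31e-22).

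The secreted apolipoproteins APOC1 and APOC2, the latter a cofactor of lipoprotein lipase, are neighbours in one gene cluster. APOC1 read 7.88, 8.04 and 7.99 (C-ions) and 7.33, 7.43 and 7.25 (X-rays) against at most 3.98 and 4.11 elsewhere, and was higher by 5.39 and 4.92. APOC2 was higher by 5.51 and 4.67, with MeWo the next line at 3.19 and 2.73. FGL2, a fibrinogen-like protein that can cleave prothrombin, was at 4.55 ± 0.14 and 4.63 ± 0.03 in Colo679 and at -0.74 or below on all other arrays, a difference of 5.67 and 5.64 that its other probe gave as 4.2 and 4.83. DNASE2B, an endonuclease known from the lens, was higher by 5.34 and 5.66, and DDIT4L, an inhibitor of mTOR signalling, by 6.06 and 5.49.

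The cytoskeletal genes ANK3 (ankyrin-G) and NEFH (the heavy neurofilament protein) were higher by 4.86 and 5.40 and by 4.41 and 4.80. NEFH stood only just above 92-1, at 5.45 and 5.45 (2 arrays with a value) (C-ions) and 6.03, 5.73 and 6.01 (X-rays) against 5.27 and 5.43 on average there. The rest of the 20 leading genes were HECW2-AS1 (5.31 and 5.26), an antisense RNA named by the array's annotation, BAALC (4.85 and 5.26), known from leukaemia, TPD52L1 (4.90 and 4.35), APOLD1 (4.35 and 4.69), known from endothelium, and CLDN11 (4.43 and 4.34), a claudin of myelin and testis. APOLD1 in MeWo was near Colo679, at 5.68 and 5.37 against 6.35 and 6.51. BAALC in C32TG read 3.86 and 3.19 against 4.80 and 5.11 in Colo679. Of the 439 higher genes, 12 passed the filter on low values only through Colo679, so these had to differ.

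**Figure D3:**
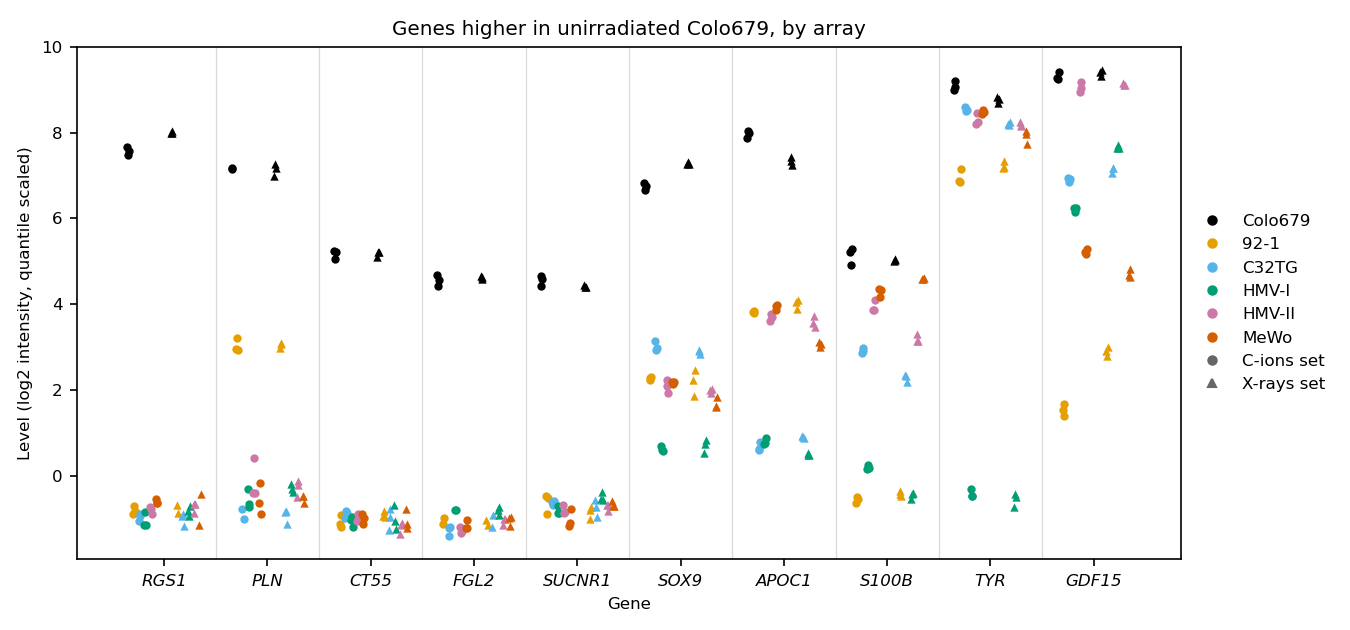
Each point is the level (log2 intensity, quantile scaled) of 1 unirradiated array for 10 genes called higher in Colo679, with circles for the C-ions set, triangles for the X-rays set and colours for the lines (black, Colo679). The black points lie above all others for each gene; for RGS1, CT55, FGL2 and SUCNR1 every other line is below 0, while HMV-II comes close for GDF15 and C32TG for TYR.

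Of the genes lower in Colo679, FAM20C stood furthest down. FAM20C, the Golgi kinase of secreted proteins, read -1.23 and -1.20 (2 arrays with a value) in the C-ions set and -1.40, -1.61 and -1.66 in the X-rays set. The other lines ran from 1.56 to 6.71 (median 4.86) and 1.54 to 6.62 (median 5.23), with HMV-II lowest and C32TG highest. All of them lay above Colo679, which was lower, at -5.63 ± 0.06 and -6.13 ± 0.06 (SE; 49.4 and 70-fold; adjusted p = 9.63e-21 and 1.04e-25, limma). AK4, an adenylate kinase of mitochondria, read 0.26, 0.13 and 0.13 (C-ions) and 0.20, 0.13 and 0.09 (X-rays), with 92-1 next at 1.67 and 1.31, and was lower, at -4.02 and -3.97. One of its other kept probes gave -3.60 and -2.99, and a dim one -0.03 and -0.11.

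SARNP, an RNA-binding protein of mRNA export, separated Colo679 from lines that resembled each other. It read 2.36, 2.41 and 2.11 in Colo679 against 5.26 to 6.38 (median 5.95) in the C-ions set, and 2.48, 2.28 and 2.23 against 4.97 to 6.54 (median 6.28) in the X-rays set. Colo679 was more than 2 log2 units below the lowest other array, at a difference of -3.53 ± 0.07 and -3.64 ± 0.07 (adjusted p = 1.49e-16 and 1.25e-18). IRX3, a homeobox factor, showed the same shape, with 1.68, 1.60 and 1.72 (C-ions) and 1.55, 1.38 and 1.42 (X-rays) in Colo679 and no other array under 4.31, and was lower, at -2.96 and -3.48. TLE4, a Groucho co-repressor, was lower, at -3.23 and -3.16, and its other 2 kept probes were also called lower.

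Matrix and cytoskeleton genes among the 20 leading lower genes were LAMA5 (-2.99 and -3.65), a laminin chain of basement membranes, FHL2 (-2.94 and -2.86), a LIM-domain adaptor, and DMD (-3.03 and -2.70), dystrophin. FHL2 in 92-1 was near Colo679, at 4.49 and 4.76 against 4.09 ± 0.03 and 4.19 ± 0.09, while the 4 other lines were above 7. Ligands and their modulators were GAS6 (-2.66 and -2.62), the ligand of the TAM receptors, and FST (-2.61 and -3.18), follistatin, which binds activins. FST in MeWo was near Colo679, at 2.35 and 2.20 against 1.84 and 1.36. STAT5A, a transcription factor of cytokine receptors, was lower, at -2.48 and -2.57, and HIPK2, a kinase that can activate p53, at -2.59 and -2.62. The exporters SLC47A1 and ABCC2 were lower, at -3.03 and -3.54 and at -3.19 and -2.99. The others were MEGF6 (-3.93 and -3.41), MOCOS (-3.36 and -3.56), which activates molybdenum enzymes, RETREG1 (-2.36 and -2.81), a receptor for autophagy of the endoplasmic reticulum, TTC28 (-2.64 and -2.51) and the zinc finger genes ZNF443 (-3.54 and -2.96) and ZNF571 (-2.56 and -2.56). LAMA5, DMD, HIPK2 and TTC28 lost their calls with the mean over all kept probes of the gene.

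**Figure D4:**
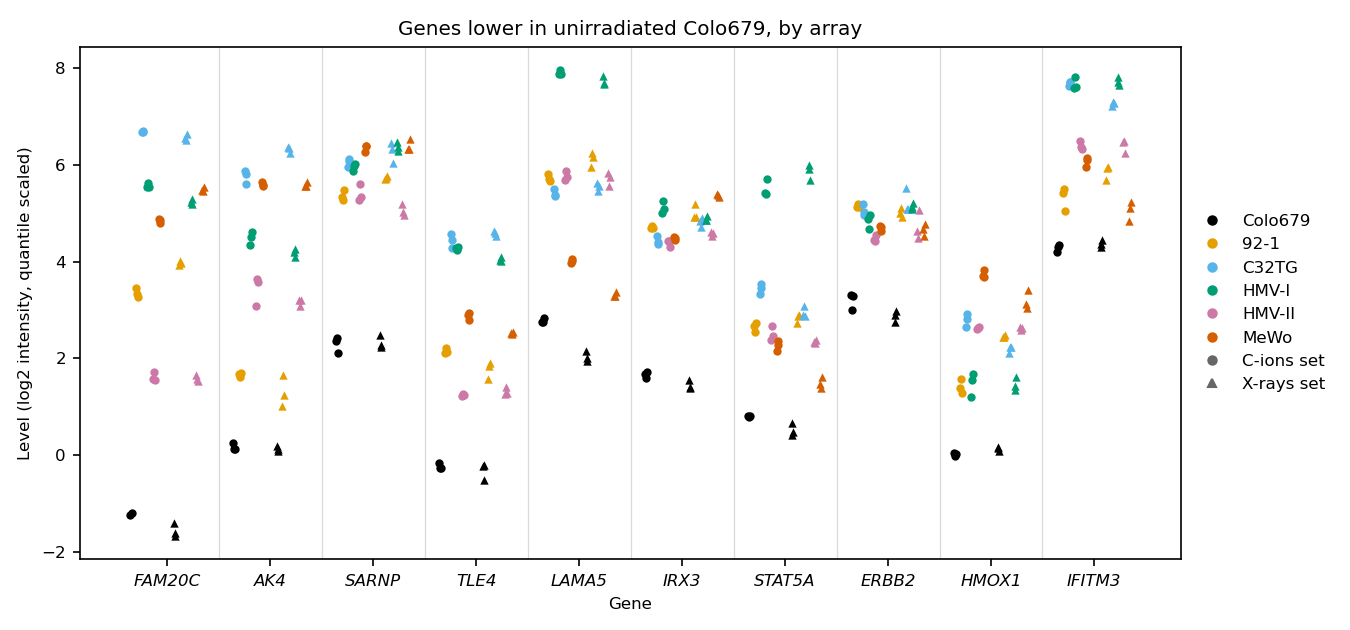
Each point is the level (log2 intensity, quantile scaled) of 1 unirradiated array for 10 genes called lower in Colo679, with circles for the C-ions set, triangles for the X-rays set and colours for the lines (black, Colo679). The black points lie below all others for each gene; for SARNP, IRX3 and ERBB2 the other lines cluster, while for FAM20C, AK4 and LAMA5 they spread over more than 4 log2 units.

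Output and feedback genes of the MAPK pathway included higher and lower ones. Of 16 measured genes 4 were higher and 2 lower (25% and 12.5%, beside 2.98% and 1.96% of all genes), with medians of 0.91 and 1.26. Without replicate 2 SPRY1 and IER3 were not called, leaving 2 higher, and without HMV-I, HMV-II or replicate 3 only 1 was lower. DUSP6, the phosphatase that switches off ERK, read 5.63, 6.11 and 6.13 (C-ions) and 6.15, 6.11 and 6.06 (X-rays), with HMV-II next at 5.80 and 5.70. It was higher by 1.62 ± 0.10 and 2.20 ± 0.10 (adjusted p = 8.61e-05 and 2.19e-09) and was not called without HMV-I. DUSP5, a nuclear ERK phosphatase, was higher by 2.55 and 2.68, and IER3, an early response gene, by 1.49 and 1.34. SPRY1, a Sprouty inhibitor of receptor signalling, stood above all other arrays, at 1.48, 1.81 and 1.49 (C-ions) and 2.30, 2.04 and 1.78 (X-rays) against at most 0.49 elsewhere, and was higher by 1.78 and 2.69. FOSL1, an AP-1 subunit induced by ERK, was lower, at -1.55 and -1.69, and EPHA2, a receptor kinase, at -1.28 and -1.36.

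Growth factor receptors and ligands were lower where they differed, 0 higher and 5 lower of 26 measured (0% and 19.2%, beside 2.98% and 1.96% of all genes), with medians of -0.23 and -0.15. ERBB2, the HER2 receptor, read 3.32, 3.0 and 3.29 in Colo679 against 4.42 to 5.20 (median 4.87) in the C-ions set. In the X-rays set it read 2.74, 2.89 and 2.98 against 4.49 to 5.51 (median 5.06). All Colo679 arrays lay below all others, at a difference of -1.64 ± 0.07 and -2.08 ± 0.09 (adjusted p = 4.78e-07 and 2.34e-09), and its other probe was called as well. EGFR was near the floor in Colo679 at -1.10 ± 0.32 and -1.18 ± 0.15, as in 92-1 and C32TG, and its difference of -2.0 and -1.99 had HMV-I as the highest line (4.46 and 4.73). KITLG, the ligand of the KIT receptor, was lower, at -2.13 and -1.51, PDGFA at -1.52 and -1.67 and IGFBP2, which binds insulin-like growth factors, at -1.89 and -2.06. Without HMV-I 3 of the 26 were lower, and EGFR and PDGFA were no longer called. The other kept probe of EGFR gave -0.09 and -0.07, and its call was lost when probes were averaged. Of 22 WNT pathway genes 2 were higher and 0 lower (9.09% and 0%), with medians of -0.01 and -0.03. The 2 were LEF1 and the secreted inhibitor DKK1 (1.63 and 1.76), and 1 was higher without 92-1, HMV-I, HMV-II or replicate 3.

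Of 25 measured targets of p53, 5 were higher and 0 lower (20% and 0%, beside 2.98% and 1.96% of all genes), with medians of 0.52 and 0.72. The higher count was 4 without 92-1, HMV-I, MeWo or replicate 2, and 7 without C32TG. Without HMV-II 1 was lower. GDF15, a stress-induced cytokine that also belongs to the cytokine list, read 9.27, 9.25 and 9.42 (C-ions) and 9.41, 9.32 and 9.46 (X-rays) in Colo679, close to the top of the scale. HMV-II came next at 9.06 and 9.13, and 92-1 was lowest at 1.53 and 2.90. All Colo679 arrays lay above all others, and the difference from the mean of the lines was 3.53 ± 0.06 and 3.09 ± 0.06 (adjusted p = 9.04e-18 and 3.12e-19). PHLDA3, an inhibitor of AKT, was also above all other arrays, at 5.11, 5.07 and 5.18 (C-ions) and 5.34, 5.07 and 5.26 (X-rays) against at most 3.81 and 3.64, and was higher by 2.32 and 2.34. CDKN1A, the p21 inhibitor of cyclin-dependent kinases, was higher by 1.95 and 1.30 with HMV-II beside it at 8.07 and 8.30, and lost its call without 92-1 or without MeWo. TNFRSF10B, a TRAIL receptor, was higher by 1.34 and 1.5, and ZMAT3, an RNA-binding target, by 1.43 and 2.11. The other kept probe of TNFRSF10B gave -0.57 and -0.53, and its call was lost when probes were averaged. HMV-II read -0.63 and -0.76 for TNFRSF10B while the other 4 lines were above 4, and without HMV-II it was not called. The labels give no p53 genotype.

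The cell cycle lists held at most 1 called gene in each direction. Among 27 measured G2 and mitosis genes 0 were called, with medians of -0.40 and 0.08, beside 2.98% higher and 1.96% lower of all genes. Among 24 of G1/S and DNA replication 1 was higher and 1 lower (4.17% and 4.17%), with medians of -0.55 and -0.33. MCM10, a replication factor, was lower, at -2.01 and -1.36, with all Colo679 arrays below all others. CDC45, another replication factor, was higher by 1.92 and 1.30 and lost its call in 10 alternatives. Of 18 CDK inhibitors and G1 cyclins 1 was higher and 1 lower (5.56% and 5.56%). CDKN1A was higher and CDKN2A, the INK4A and ARF locus, was lower, at -1.97 and -1.97. CDKN2A was dim in Colo679 (-0.86 ± 0.19 and -0.84 ± 0.04) as in C32TG (-0.99 and -0.82) and MeWo (-0.39 and -0.30), and its call rested on HMV-I (4.18 and 4.03). Among 24 BCL2 family and death receptor genes 3 were higher and 2 lower (12.5% and 8.33%). The higher ones were TNFRSF10B, whose probes disagreed as given above, BCL2A1 (1.97 and 2.39) and BIRC7 (2.96 and 3.03). BCL2A1 is a survival factor of the MITF programme and BIRC7 an inhibitor of apoptosis. The lower ones were CFLAR (-1.61 and -2.04), an inhibitor of caspase 8, and BOK (-1.82 and -1.71). The other kept probes of CFLAR gave 0.12 and 0.09, and 0.17 and 0.06, and that of BOK -0.28 and -0.31, and both genes lost their calls when probes were averaged. Without 92-1 or without HMV-I, BOK was not called.

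Matrix and mesenchymal genes were mixed in Colo679. Of 22 matrix genes 3 were higher and 2 lower, with medians of 0.02 and 0.07. These shares were 13.6% and 9.09%, beside 2.98% and 1.96% of all genes. Without HMV-I 1 was higher, and without 92-1 or without HMV-II 5 were lower. FN1, fibronectin, stood at 8.38 ± 0.09 and 8.25 ± 0.08, near C32TG and HMV-II, and was higher by 3.50 and 3.30, with HMV-I the lowest line (-0.96 and -1.12). LAMA4, a laminin chain of vessels, was higher by 1.5 and 2.21 and LUM, the proteoglycan lumican, by 1.80 and 1.73. FBN2, a fibrillin, was lower, at -2.62 and -2.54 and LOX, a collagen cross-linking enzyme, at -2.21 and -2.45. Of 22 cadherins, integrins and related adhesion genes 3 were higher and 2 lower (13.6% and 9.09%). ITGA7 (3.57 and 3.84), ITGB3 (1.74 and 2.06) and ALCAM (2.44 and 1.95) were higher, and ITGA3 (-1.33 and -1.48) and L1CAM (-1.58 and -1.77) lower.

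Of 26 genes of the dedifferentiated or invasive state 3 were higher and 4 lower, with medians of -0.49 and -0.27. These shares were 11.5% and 15.4%, beside 2.98% and 1.96% of all genes. SOX9, DKK1 and SERPINE2 (1.42 and 2.27), a protease inhibitor, were the higher ones. CD44, the hyaluronan receptor, was lower, at -1.67 ± 0.07 and -1.69 ± 0.06, FGF2 at -1.92 and -1.93, and FOSL1 and EGFR as given above. Without HMV-I 2 were higher and 2 lower.

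Of the 10 measured fibroblast markers 3 were higher in Colo679, FAP, LUM and DCN, and 0 lower. These shares were 30% and 0%, beside 2.98% and 1.96% of all genes. Without 92-1, C32TG or HMV-I 2 were higher (20%), and LUM lost its call each time. LUM read 3.55 and 3.27 in Colo679 against 6.09 and 5.35 in the highest other line. FAP, a surface protease of activated fibroblasts, read 5.42, 5.35 and 5.56 (C-ions) and 5.26, 5.22 and 5.19 (X-rays), with HMV-II next at 4.2 and 4.11, and was higher by 4.0 ± 0.07 and 3.86 ± 0.07 (adjusted p = 3.63e-18 and 2.68e-20). DCN, decorin, read 1.71, 1.62 and 1.74 in the C-ions set and 2.99, 3.0 and 2.92 in the X-rays set, so that it stood above all other lines in the latter and below MeWo in the former. COL1A1, COL1A2 and THY1 did not pass: their differences were 0.01 and -0.03, then -0.25 and -0.07, then -0.19 and -0.15, in that order, and COL3A1 was dim in Colo679 (-1.28 and -1.14). The mean level of the 8 defining fibroblast markers was 1.28 and 1.58 in Colo679 and ran from -0.43 to 0.94 and from -0.53 to 0.94 over the other lines. Whether other cells had a part in the matrix values was not tested.

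Immune genes showed single differences. Of 14 class I antigen presentation genes 1 was higher and 0 lower (7.14% and 0%, beside 2.98% and 1.96% of all genes). This was HLA-F, at 6.14, 6.15 and 6.14 (C-ions) and 5.82, 5.77 and 5.75 (X-rays) against at most 4.97 and 5.26 elsewhere. HLA-F was higher by 2.39 and 1.98, and a second kept probe of it did not pass (-0.41 and -0.35). Of 13 class II genes 0 were higher and 1 lower (0% and 7.69%), IFI30, a lysosomal thiol reductase, at -2.0 and -2.49. Of 22 interferon-stimulated genes 3 were higher and 1 lower (13.6% and 4.55%). BST2 (4.16 and 2.80), a tether of virus particles, IFI16 (2.95 and 2.76), a DNA sensor, and IFIT3 (1.39 and 1.71) were higher and IFITM3 was lower. IFIT3 lost its call with median centring and without HMV-I, replicate 2 or replicate 3. With median centring or without HMV-I 2 of the 22 were higher and 2 lower. IFITM3, which blocks virus entry, read 4.19, 4.29 and 4.35 (C-ions) and 4.37, 4.29 and 4.45 (X-rays) with no other array under 4.84, a difference of -2.35 and -2.09. BST2 in Colo679, at 4.57 ± 0.32 and 3.39 ± 0.02, was exceeded by HMV-I alone (6.31 and 6.42), and the other lines were at -0.65 or below.

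Of 19 measured cytokines and chemokines 5 were higher and 1 lower (26.3% and 5.26%, beside 2.98% and 1.96% of all genes), with medians of -0.10 and 0.02. IL24, a cytokine first found in melanoma differentiation, stood high in HMV-II, at 7.42 and 7.49, and in Colo679, at 7.12 ± 0.11 and 6.57 ± 0.03, with the other 4 lines at 2.09 or below, and was higher by 4.36 and 3.63. SPP1, osteopontin, was higher by 4.58 and 4.45, with HMV-II above it. CCL2, a chemokine for monocytes, read 1.19, 1.18 and 1.47 (C-ions) and 2.62, 2.67 and 2.63 (X-rays) against at most 0.57 elsewhere, a difference of 2.06 and 3.57. MIA, a secreted melanoma marker, was higher by 1.79 and 1.45, GDF15 as given above, and BMP4, a morphogen, was lower, at -1.39 and -1.38. Of 13 cancer-testis antigens 2 were higher and 0 lower (15.4% and 0%), PRAME (3.43 and 4.10) and MAGEA12 (1.98 and 1.86). CT55 was not on that list.

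Among the glycolysis and hypoxia genes more were lower than higher. Of 19 measured genes 1 was higher and 5 lower (5.26% and 26.3%, beside 2.98% and 1.96% of all genes), with medians of -0.81 and -0.51. The 5 became 2 without C32TG, 3 without MeWo and 3 without replicate 3. HK2, the hexokinase at the entry to glycolysis, read 2.09, 1.95 and 2.06 (C-ions) and 2.26, 2.26 and 2.12 (X-rays), below all other arrays, and was lower, at -2.19 ± 0.07 and -1.70 ± 0.07 (adjusted p = 1.80e-11 and 1.52e-08), a call not kept with the mean over its probes. ALDOC, an aldolase, was lower, at -1.86 and -1.70, ENO2, an enolase, at -1.37 and -1.33, PDK1, which holds pyruvate from the mitochondrion, at -1.40 and -1.29, and the hypoxia-induced hormone ADM at -1.43 and -2.53. PPARGC1A, a driver of mitochondrial genes, was higher by 2.04 and 1.95, with MeWo above Colo679 and HMV-II near it.

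Of 17 NRF2 and glutathione genes 1 was higher and 3 lower (5.88% and 17.6%, beside 2.98% and 1.96% of all genes). HMOX1, heme oxygenase, read 0.06, -0.01 and 0.03 (C-ions) and 0.15, 0.17 and 0.08 (X-rays) in Colo679 with no other array under 1.20, and was lower, at -2.39 ± 0.08 and -2.26 ± 0.07. GSTT1, a glutathione transferase, was near the floor in Colo679 (-1.04 ± 0.24 and -0.92 ± 0.11) and HMV-II (-1.05 and -1.05), with the 4 other lines above 3, and was lower, at -3.84 and -3.62. AKR1C3, which belongs to a family of near-identical genes, was lower, at -2.11 and -2.06 and MGST1 higher by 2.17 and 2.72. The other kept probe of MGST1 gave -0.13 and -0.05, and its call was lost when probes were averaged. Of 16 sterol and fatty acid synthesis genes 0 were called, with medians of -0.31 and -0.29. Of 19 HOX genes 2 were higher and 1 lower (10.5% and 5.26%). HOXA2 (2.52 and 3.01), above all other arrays, and HOXB4 (1.47 and 1.70) were higher and HOXD1 (-1.56 and -1.52) lower. Of 4 keratinocyte markers measured 1 was higher (25%), KRT15 (2.04 and 2.57), and 0 of 9 leukocyte and 0 of 6 endothelial markers were called.

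The arrays taken after irradiation had no part in the calls above beyond the shared scaling, and they gave the same contrast in 4 further sets of 18 arrays of the same lines. Of the 439 higher genes, 419, 416, 407 and 396 were called higher 1 h and 3 h after carbon ions and 1 h and 3 h after X-rays, where 3.84%, 4.26%, 3.72% and 3.47% of all genes were. Of the 289 lower genes, 242, 239, 262 and 261 were called lower, where 2.9%, 2.75%, 2.48% and 2.86% of all genes were, and 0 genes were called in the opposite direction. Each of the 40 leading genes was called in all 4 conditions. Of the 439 higher genes, 12 had passed the filter on low values only through Colo679, among them RGS1, CT55, FGL2 and SUCNR1. Their calls here give no further support. As the lines are the same, these arrays show that the differences recur in them and do not test them on other lines. RGS1 was higher by 8.32, 8.41, 8.41 and 9.05 in that order, and FAM20C was at -5.67, -5.55, -6.10 and -5.72. GDF15, a p53 target, varied more between the conditions. GDF15 was higher by 3.69, 2.77, 3.22 and 2.29, and DUSP6, at 1.0 and 1.34, was not called 1 h after either beam. NEFH overlapped with another line after carbon ions at both times, FHL2 3 h after carbon ions and RETREG1 3 h after X-rays.

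**Figure D5:**
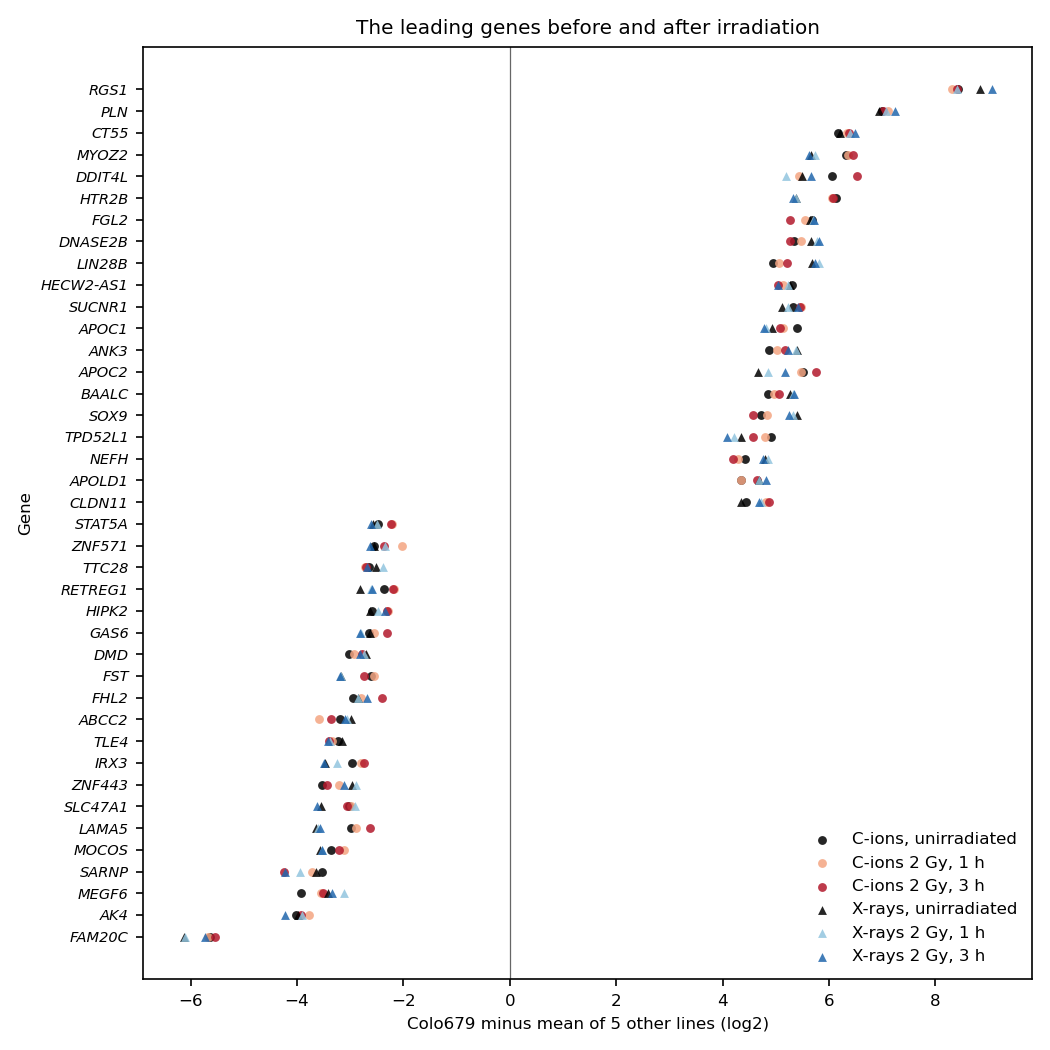
Each point is the difference between Colo679 and the mean of the 5 other lines (log2) for the 20 leading higher and 20 leading lower genes (rows), with circles for carbon ions, triangles for X-rays, black for unirradiated arrays and colours for 1 h and 3 h after 2 Gy. All 6 points of a gene lie on the same side of 0, and for RGS1 they run from 8.32 to 9.05.

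By the rule of calling, the called genes have the same sign in both control sets, but the size of the difference was not always the same. The difference between sets passed limma's test for 315 of the 728 called genes, and for 40.6% of all genes (35.9% of probes). Between the Colo679 controls of the C-ions and X-rays sets, 942 genes were higher (6.4%) and 1597 lower (10.9%) in the C-ions set, together 17.3% of genes and 15% of probes, a balance that was not stable. Of the called probes 40.8% were higher with quantile scaling, 22.4% with median centring, 59.3% as deposited, 53.8% with the replicate block and 57.2% without replicate 2, which also lowered the called probes from 5397 to 1943. Among the named genes the Colo679 level in the C-ions set was below that of the X-rays set by the following log2 differences: CCL2 -1.36, DCN -1.28, POSTN -1.30, DUSP5 -0.87 and KITLG -0.87. BST2 and HTR2B were higher in the C-ions set, by 1.18 and 0.93. POSTN, periostin, a fibroblast marker, was called against the other lines in the X-rays set only (differences of 0.47 and 1.89). The beam, the culture and the hybridisation of a set cannot be told apart here.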

How the data were processed

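RNA was extracted with ISOGEN and RNeasy and labelled with biotin, per the labels' protocols, and each sample was hybridised to 1 array. The authors deposited 1 table of processed spot intensity, linear by its values; the software, scaling between arrays, background correction and flagging behind it are not stated in the labels or file headers used here. Deposited medians of the 36 unirradiated arrays ran from 1.02 to 1.26, and missing values from 2636 to 5038 per Colo679 array (1034 to 5558 in other lines). The number of arrays, 3 in a group, limits the precision.

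Deposited values were taken as log2 and quantile scaled over all 108 arrays, since array medians ranged over 0.38. Of 54359 probes, 36082 were kept: at least 2 values in each of the 12 unirradiated groups, and the highest line mean above the 40th percentile of probe means (-0.38). The annotation given with the arrays left 29982 probes unnamed; 905 had several symbols and named no gene. A gene is its kept probe with 1 symbol and the highest mean over the unirradiated arrays, 14711 in all.

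limma (version 3.58.1, R 4.3.3) was fitted in each set on 18 arrays, 6 groups of 3, with a trend; treat tested a 2-fold difference (log2 of 1), two-sided, Benjamini-Hochberg at 0.05 over all kept probes. A missing value drops that array from that probe. The difference between sets, and between the Colo679 controls, was tested against 0 over all 36 arrays. SE is that of the contrast. On simulated data of these sizes, 86% to 100% of probes changed by log2 1.5 to 4 were called in the right direction, with 0 false calls. The simulated lines had no other differences and independent noise, so false calls beyond 2-fold could hardly arise. The spread between real lines was left out, so the simulation does not give the rate of false calls in these data.

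Lists were 25, with 441 of 581 genes measured; they are described by counts and medians, with no set test. Named are the 20 genes in each direction with the largest smaller difference of both sets among called genes lying outside all other arrays, the called members of each list, and cell type markers. Members, lists and rule were chosen with earlier results of these data known. Alternatives were other scaling, filters, tests, the replicate block, lines as the unit, leaving out a replicate or a comparator line, and averaging probes.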

Additional observations from a re-analysis of the deposited data

Results flagged for a closer look

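Each gene named here was called in the same direction in both control sets, but the size of its difference between Colo679 and the other lines depended on the set (limma, adjusted p below 0.05, as for 40.6% of all genes). Values are the difference in the C-ions set minus that in the X-rays set, log2. Above 0 they were, in falling order, BST2 1.36, ADM 1.10, APOC2 0.84, HTR2B 0.75, IL24 0.73, LAMA5 0.66, CDKN1A 0.65, MYOZ2 0.64, RAB38 0.62, CDC45 0.62, FST 0.57, DDIT4L 0.56, TPD52L1 0.55, IRX3 0.52 and SLC47A1 0.51. Smaller ones above 0 were FAM20C 0.50, ALCAM 0.49, IFI30 0.49, APOC1 0.47, RETREG1 0.45, ERBB2 0.44, GDF15 0.44, CFLAR 0.44, HLA-F 0.42, MLPH 0.42, MLANA 0.41, SLC45A2 0.39, TFAP2A 0.38 and GPR143 0.34. Below 0 they were CCL2 -1.52, DCN -1.48, SPRY1 -0.91, SERPINE2 -0.85, LIN28B -0.74, LAMA4 -0.71, LEF1 -0.70, SOX9 -0.68, ZMAT3 -0.67, PRAME -0.67, MCM10 -0.65, KITLG -0.62, DUSP6 -0.57, ZNF443 -0.57 and MGST1 -0.55. Smaller ones below 0 were ANK3 -0.54, KRT15 -0.53, MEGF6 -0.52, HK2 -0.49, HOXA2 -0.49, BCL2A1 -0.42, RGS1 -0.42, BAALC -0.41, NEFH -0.39, APOLD1 -0.34, DMD -0.33, IFIT3 -0.32, ITGB3 -0.32 and ITGA7 -0.27. For a gene lower in Colo679 a value above 0 means a larger deficit in the X-rays set, as for LAMA5 and FAM20C.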

How the results depend on the processing

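The counts of called probes depended most on the threshold and the unit. Against no difference in place of 2-fold, 21293 probes were called in the C-ions set, 19911 in the X-rays set and 12516 in both the same way, and at 1.5-fold 4523, 3798 and 2641, beside 1624, 1583 and 1117. With lines as the unit (eBayes against no difference) 47, 33 and 26 were called, and 1273 and 998 had an unadjusted p under 0.05. Without 1 replicate number the counts ran from 1349 to 1526, 1339 to 1484 and 941 to 1060, the difference between sets from 7412 to 10039 (12962 with all) and that between the Colo679 controls from 1943 to 3615 (5397 with all). Median centring raised the last to 8317, and the cause was not tested. Of probes with a difference between sets, 37.2% were above 0, 27.4% with median centring and 59.6% as deposited. Other alternatives kept these counts within 1.5 times.

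None of the 118 called genes named here changed direction under any alternative. Alternatives that change only the filter, threshold, test or unit leave the difference itself as it was, so they could not reverse it. HMV-I mattered most: 96 stayed called without it, and TYR, PMEL, CAPN3, SLC45A2, RAB38, MLPH, LEF1, ZMAT3, DUSP6, EPHA2, EGFR, PDGFA, ADM, CDKN2A, MIA, LAMA4, SERPINE2, FGF2, LUM, BOK, HOXB4 and IFIT3 did not. Without 92-1, 106 stayed, losing LEF1, TFAP2A, CDKN1A, IER3, BMP4, LAMA4, SERPINE2, LUM, CDC45, BOK, HOXD1 and MAGEA12. Without MeWo 108 stayed, losing MYO5A, CDKN1A, IER3, ALDOC, ENO2, MIA, CDC45, HOXB4, L1CAM and MAGEA12. Without HMV-II 109 stayed, losing MYO5A, TNFRSF10B, EPHA2, ENO2, DKK1, ALCAM, ITGA3, CDC45 and MGST1, and without C32TG 112, losing MYO5A, ENO2, PDK1, ADM, BMP4 and LUM. Averaging the probes of a gene kept 104, losing LAMA5, DMD, HIPK2, MLPH, LEF1, MYO5A, TNFRSF10B, EGFR, HK2, CFLAR, HLA-F, BOK, MGST1 and TTC28. Median centring kept 114, values as deposited 111, and leaving out a replicate number 111 or 115. CCL2 and KRT15 had no value under the filter on the mean over lines. Counts of the lists without each comparator line were an alternative chosen after seeing the data.

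With the replicate block the counts were 1638, 1595 and 1129, 13560 between sets and 4735 between the Colo679 controls (53.8% of them higher in the C-ions set, beside 40.8%), and all 118 stayed called. The numbers were not taken to pair the samples, since 27 of 90 same-number pairs had deviations correlated above 0.1. As a hint the other way, the median correlation was 0.04 for same and -0.03 for different numbers, and 23 of 36 arrays correlated best with their own number.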

Other observations

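Besides PLN and MYOZ2, 2 more genes known from heart and striated muscle had a high probe in Colo679; they were picked after their values were seen, from no fixed list, and muscle genes also lay on the other side, as DMD (-3.03 and -2.70) and FHL2 (-2.94 and -2.86). NKX2-5, a homeobox factor of the heart, read 2.13 to 2.5 in the C-ions set and 2.87 to 2.93 in the X-rays set on Colo679 arrays, while no other array exceeded -0.49. It was higher by 3.45 and 3.91. Its probe passed the filter on low values only through Colo679, so it had to differ. A probe of SYNPO2L, an actin-binding protein of muscle, read 5.0 to 5.04 and 4.72 to 4.80, with no other array above -0.63, a difference of 5.97 and 5.74, and it too passed that filter only through Colo679. The probe that represents SYNPO2L here, brighter on average, gave 0.74 and 0.36 and was not called.

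RGS5, a relative of RGS1 known from pericytes, had the same disagreement. One probe read 4.96 to 5.08 and 5.88 to 6.07 in Colo679, with no other array above -0.56, and was higher by 6.08 and 7.0, having passed the filter only through Colo679. Its other 2 kept probes, brighter over all lines, gave 0.86 and 1.08, and 0.04 and 0.29, so RGS5 is not among the called genes. The files give no probe sequence to tell these probes apart. Of the 26 probes called with lines as the unit, 17 carried 1 symbol, for 15 genes. Among these NOX4, an oxidase that makes hydrogen peroxide, was higher by 3.65 and 3.02, with the same limit, and FERMT3, an integrin activator of blood cells, by 3.75 and 3.76, with every other array at 0.20 or below.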
